A study of Mus musculus with 16 samples.

Results

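The Sox2 binding sites of reprogramming fibroblasts were compared between 2 cocktails at day 5. One held Oct4 with Sox2 and Klf4 (Oct4-SK), the other Oct6 with Sox2 and Klf4 (Oct6-SK). Members were the Sox2 ChIP-seq summits deposited for each library on chromosomes 1 to 19, X and Y. There were 5793 summits in Oct4-SK and 2669 in Oct6-SK, 8462 of the 227116 summits in the 13 ChIP libraries of the series. A site was called shared when a summit of the other list lay within 100 bp, and private otherwise. Both groups started from OG2 mouse embryonic fibroblasts, which carry a GFP reporter driven by the Oct4 promoter. The cells received pMX retroviruses and were kept in the chemically defined medium iCD1 until day 5. The other libraries mapped Sox2, Oct4, the Oct4 mutant Oct4defSox2, and the point mutants Oct4 S151M and Oct6 M151S, on days 1 to 7. Oct4defSox2 was designed not to pair with Sox2 on the composite SoxOct element described below, while pairing on other arrangements is not blocked. Each group is a single library of bulk cells, in which fewer bound cells and weaker binding per cell cannot be told apart. A summit list of wild-type Oct6 was not used here. With 1 library per group there is no replicate check and no test between conditions: the 95% intervals below cover counting error among sites only, and every difference compares these libraries. A difference is called past counting error when its interval leaves out 0.

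Sox2 is a transcription factor with an HMG box that binds short CCATTGT-like sequences in the minor groove and bends DNA. In pluripotent cells it often binds beside Oct4 on the composite SoxOct element, which holds a Sox site next to an octamer (ATGCAAAT). Oct4 (gene Pou5f1) and Oct6 (gene Pou3f1) are POU factors with related DNA-binding domains. Oct6 is known in neural, epidermal and Schwann cells, and favours pairing with itself on a palindrome named MORE. Oct4 starts pluripotency with Sox2 and Klf4, and Oct6 in its place does not. The comparison therefore asks where Sox2 binds when its POU partner in the cocktail is changed.

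The sequences below are the reference sequence (GRCm38, mm10, plus strand) within 50 bp of the strongest shared summits, the 6 pairs with the lowest sum of ranks. Capitals mark exact Sox letters (CCATTGT or CCTTTGT on either strand), octamers, AP-1 letters, or SoxOct elements with up to 2 mismatches. The Mobp site, chr9:120149517-120149617, lies 140 bp upstream of the start of Mobp, a myelin gene. The Sox21 sites, chr14:118230314-118230414 and chr14:118230640-118230740, lie downstream of Sox21, a neural Sox gene. The site nearest to Sox13, 68314 bp from its start, is chr1:133492641-133492741, the site nearest to Prdm1, 258051 bp from its start, chr10:44716749-44716849, both intergenic, and the Bcas3 site is intronic at chr11:85678724-85678824.
Mobp: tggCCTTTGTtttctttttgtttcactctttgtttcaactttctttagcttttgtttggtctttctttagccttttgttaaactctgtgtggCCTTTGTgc
Sox21 first: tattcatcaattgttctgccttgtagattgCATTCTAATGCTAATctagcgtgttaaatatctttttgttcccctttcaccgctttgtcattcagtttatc
Sox21 second: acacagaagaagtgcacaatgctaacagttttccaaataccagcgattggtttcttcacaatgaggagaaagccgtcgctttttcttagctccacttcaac
Sox13: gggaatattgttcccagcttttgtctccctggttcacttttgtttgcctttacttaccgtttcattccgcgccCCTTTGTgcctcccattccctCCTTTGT
Prdm1: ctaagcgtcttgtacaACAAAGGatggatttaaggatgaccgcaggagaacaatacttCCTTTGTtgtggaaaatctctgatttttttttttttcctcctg
Bcas3: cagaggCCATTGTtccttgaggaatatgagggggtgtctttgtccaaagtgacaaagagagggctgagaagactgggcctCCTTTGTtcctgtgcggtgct

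The score of a summit is the −log10 of the p-value of its peak caller, and it is not comparable between libraries. At Mobp the score was 102.0 in Oct4-SK (rank 2) and 68.4 in Oct6-SK (rank 3), with the summits 4 bp apart. At the first Sox21 site the scores were 81.7 and 69.8, ranks 6 and 1, and the summits lay 7 bp apart. This site held a SoxOct element with 1 mismatch and had a summit in 11 of 13 libraries, among them Oct4 at day 5 with a score of 53.9. The second Sox21 site scored 52.8 and 68.4, held no match in the printed bases and was found in 3 libraries. The site nearest to Sox13, a Sox family gene, scored 106.2, the highest of the Oct4-SK list, and 38.5 in Oct6-SK. The Prdm1 site scored 81.7 and 37.3, and the Bcas3 site 56.9 and 42.9. Of the 6 windows, 4 carried exact Sox letters and 1 a SoxOct element.

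Next come 7 of the 12 strongest sites with no summit of the other list within 1 kb, picked after their values were seen to show sites with and without Sox letters. For Oct4-SK they were in an intron of Pcsk2, a prohormone convertase (chr2:143713140-143713240), 485 bp from the start of Ankub1 (chr3:57692972-57693072), and in an intron of Ak3, a mitochondrial kinase (chr19:29037090-29037190). For Oct6-SK they were 70573 bp from the start of Npas2, a clock gene (chr1:39123589-39123689), in introns of the Notch ligand gene Jag1 (chr2:137107489-137107589) and of the retinoic acid receptor gene Rarb (chr14:16714426-16714526), and 4923 bp from the start of Ctr9 (chr7:111023978-111024078). Capitals are as above.
Pcsk2 (Oct4-SK): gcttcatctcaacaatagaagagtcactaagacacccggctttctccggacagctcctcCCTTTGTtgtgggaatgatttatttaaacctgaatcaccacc
Ankub1 (Oct4-SK): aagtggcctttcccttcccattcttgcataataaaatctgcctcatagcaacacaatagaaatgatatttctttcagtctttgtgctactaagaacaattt
Ak3 (Oct4-SK): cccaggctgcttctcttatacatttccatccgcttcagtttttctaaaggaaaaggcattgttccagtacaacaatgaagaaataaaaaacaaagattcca
Npas2 (Oct6-SK): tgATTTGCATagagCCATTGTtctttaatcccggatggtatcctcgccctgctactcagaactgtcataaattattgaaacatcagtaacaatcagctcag
Jag1 (Oct6-SK): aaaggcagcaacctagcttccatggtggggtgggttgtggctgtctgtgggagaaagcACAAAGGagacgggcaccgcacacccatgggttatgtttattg
Rarb (Oct6-SK): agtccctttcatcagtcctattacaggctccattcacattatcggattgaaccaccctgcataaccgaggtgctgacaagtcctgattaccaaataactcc
Ctr9 (Oct6-SK): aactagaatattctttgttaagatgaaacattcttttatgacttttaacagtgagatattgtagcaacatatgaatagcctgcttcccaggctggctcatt

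Sites with no other summit within 1 kb ranked below the strongest shared ones. The 6 leading ones of Oct4-SK scored 39.0 to 52.4, at ranks 21 to 58, and the 6 of Oct6-SK scored 22.9 to 25.1, at ranks 64 to 93. The Npas2 site, with an octamer and CCATTGT close by, scored 22.9 and was also found with Oct4defSox2 (14.5) and Oct4 S151M (9.5). The Jag1 site scored 22.9 and was seen in no other library. The Rarb site scored 23.0 and recurred with Oct6 M151S (8.2) alone. Of the Oct4-SK sites, Pcsk2 scored 40.0 and recurred in 3 other libraries. An Oct4-SK private site in an intron of Zc3h7a scored 49.6 in a window of 78.6% GC, and the one in a UTR of Lars2 scored 43.4. The highest, at 52.4, lay 109751 bp from the nearest coding start.

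Sharing was partial and fell with rank. Of the Oct4-SK sites, 965 of 5793 were shared, or 16.7% (95% Wilson interval 15.7 to 17.6). Of the Oct6-SK sites, 964 of 2669 were shared, or 36.1% (34.3 to 38.0). The lists differ in length, so the highest-scoring 2669 summits of each were compared. Then 762 were shared, 28.6% of either list (26.9 to 30.3). At equal numbers of 1000 the share was 32.0% (29.2 to 35.0), and at 100 it was 38.0% (29.1 to 47.8). At these cuts the lists reached different scores: the Oct4-SK summit ranked 2669 scored 9.63 and the Oct6-SK one 4.06.

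Against the whole other list, strong sites were mostly found again. Of the top 100 Oct4-SK sites, 82 had an Oct6-SK summit within 100 bp, and of the top 100 Oct6-SK sites, 90 had an Oct4-SK summit. In the highest of 10 rank bins of each list, 56.2% of Oct4-SK (52.1 to 60.2) and 76.4% of Oct6-SK sites (71.0 to 81.1) were shared. In the lowest bin, the shares were 4.15% (2.80 to 6.09) and 15.4% (11.6 to 20.2). Median scores were 14.39 at shared and 8.19 at private Oct4-SK sites, and 10.77 and 8.01 in Oct6-SK. Across the 965 shared pairs the scores correlated with a Spearman rho of 0.36, given as a description. In 121 pairs both summits were in the highest bin of their lists.

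**Figure D1:**
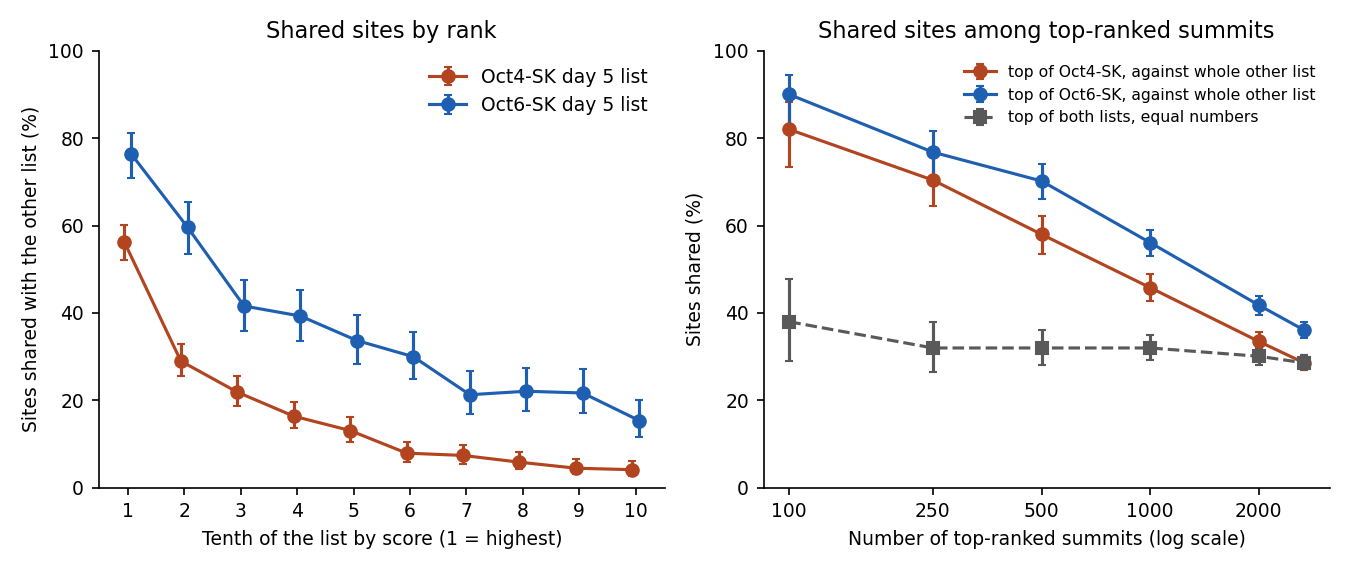
Left, percent of sites shared with the other day 5 list by rank bin (10 bins, 1 the highest), with 95% Wilson bars. Right, percent shared among top-ranked summits (log axis) against the whole other list or at equal numbers: strong sites are mostly found again, from 82.0% and 90.0% at the top 100, while the equal-number share stays between 28.6% and 38.0%.

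Shared summits lay within 100 bp of each other by definition. Inside that limit their median spacing was 37 bp (quartiles 17 and 60.0). Of the Oct4-SK sites, 172 lay within 10 bp of an Oct6-SK summit and 344 lay 51 to 100 bp away. Another 261 lay 101 to 250 bp away and were counted as private, while 84 lay 251 to 1000 bp away. The remaining 4483 had no Oct6-SK summit within 1 kb. In turn, 1382 Oct6-SK sites had no Oct4-SK summit within 1 kb. Widening the distance to 1 kb raised the shares to 22.6% and 48.2%.

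Among the 15 pairs of Sox2 libraries, each cut to its top 2669 summits, the 3 day 5 pairs had the highest overlap. Oct4-SK against Oct6-SK shared 28.6%, Oct4-SK against Oct4defSox2-SK 32.0% (30.2 to 33.8), and Oct6-SK against Oct4defSox2-SK 30.8% (29.1 to 32.6). These pairs share libraries, so they are set side by side without a test. The same 2 cocktails at day 1 shared 15.7% (14.4 to 17.2). Oct6-SK at day 5 shared 11.3% with its own day 1 list, less than with Oct4-SK at the same day. That day 1 list had 3242 summits, so the cut to 2669 took in most of it. Only 18.2% of its summits scored at least 10, the lowest share among the Sox2 lists. Its overlap with the other Sox2 libraries ran from 9.07% to 17.1%. Whether day or list strength lies behind these values was not tested.

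Sox letters were common in both lists. A match to CCATTGT or CCTTTGT lay within 100 bp of 32.6% of Oct4-SK summits (31.4 to 33.8) and 34.6% of Oct6-SK summits (32.8 to 36.4). Windows of the same length 2 kb to either side held one in 7.36% and 7.89%. Shared sites carried Sox letters more often: 45.3% against 30.1% of private sites in Oct4-SK, a difference of 15.2 points (11.9 to 18.6), and 45% against 28.7% in Oct6-SK, 16.3 points (12.5 to 20.1). Private sites of the whole lists differed by 1.37 points (−1.16 to 3.85), Oct4-SK minus Oct6-SK. The difference was past counting error at equal numbers of 2669 (10.4 points, 7.36 to 13.4) and 1000 (9.71 points, 4.47 to 14.9), and with scores of at least 10 (5.73 points, 0.936 to 10.3). The Sox share also moved with the score, from 50.7% in the highest Oct4-SK rank bin to 20.9% in the lowest, and from 46.8% to 23.7% in Oct6-SK. Among the top 1000 Oct4-SK sites, 48.7% of those with Sox letters were shared against 43.1% of the others (5.52 points, −0.655 to 11.6). Below the top 1000 the shares were 14.4% and 9% (5.37 points, 3.36 to 7.51). In Oct6-SK the corresponding differences were 12.3 points (6.08 to 18.3) and 13.4 points (8.80 to 18.2).

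**Figure D2:**
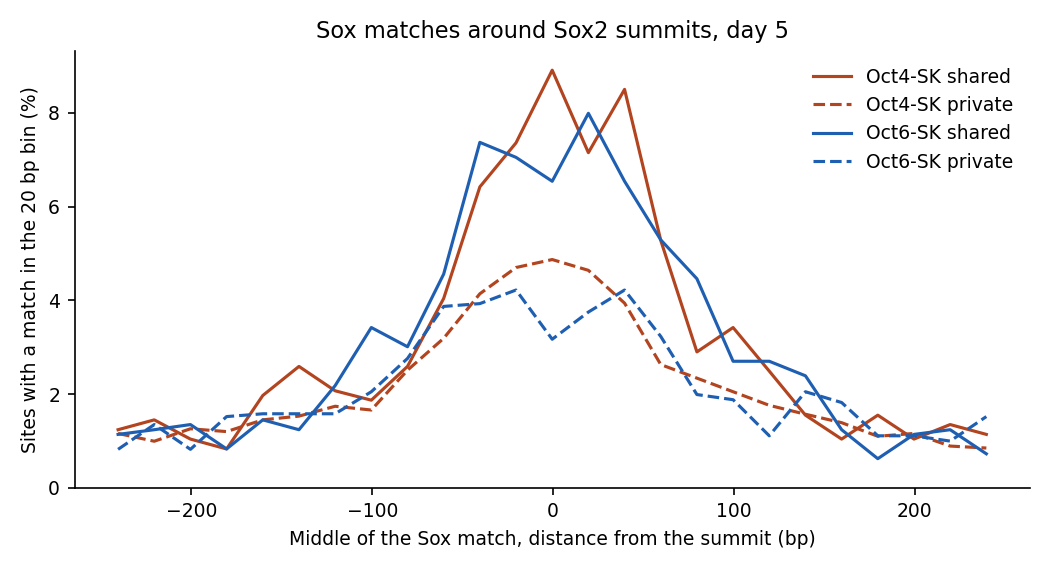
Percent of sites with an exact Sox match in each 20 bp bin, by distance of its middle from the summit, for shared (solid) and private (dashed) sites. The central bin holds the highest share in both Oct4-SK classes (8.91% shared, 4.87% private), while in Oct6-SK it stands at 6.54% and 3.17%, below bins to its sides (up to 7.99% and 4.22%). These Oct6-SK bins hold few sites (63 against 77 shared, 54 against 72 private). No intervals were computed, so no difference in shape is claimed.

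The composite element was found in both lists, although only 1 cocktail held Oct4. A SoxOct element lay at 280 Oct4-SK sites, 4.83% (4.31 to 5.42), and at 119 Oct6-SK sites, 4.46% (3.74 to 5.31), against 1.14% and 1.11% of flanking windows. The difference over whole lists was 0.375 points (−0.624 to 1.30). It was 1.72 points (0.519 to 2.94) at equal numbers of 2669, past counting error, but 1.90 points (−0.262 to 4.08) at 1000 and 0.844 points (−1.04 to 2.50) with scores of at least 10. Private sites held the element at 4.66% in Oct4-SK and 3.52% in Oct6-SK, a difference of 1.14 points (0.00906 to 2.14). Of the 119 Oct6-SK sites with the element, 59 were shared (49.6%, 40.8 to 58.4), against 35.5% of sites without it. Among the top 1000 the difference was 6.05 points, with an interval that took in 0 (−7.53 to 18.1). Below the top 1000 it was 15.5 points (4.30 to 27.9). Of the 280 Oct4-SK sites, 55 were shared (19.6%, 15.4 to 24.7), against 16.5% (3.14 points, −1.21 to 8.28).

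The other motifs separated the lists little. MORE, or its form with 1 more base between its arms, both with up to 1 mismatch, lay at 0.846% of Oct4-SK and 0.637% of Oct6-SK sites, near the flanking 0.785% and 0.787%. The octamer ATGCAAAT lay at 2.69% and 2.74% (flanks 1.32% and 1.48%). AP-1 letters (TGACTCA or TGAGTCA), bound by the Fos and Jun factors of fibroblast enhancers, lay at 10.1% and 10.2% (flanks 3.50% and 3.69%). KLF letters (GGGTGTGG or GGGCGTGG), bound by Klf4 of the cocktail, lay at 5.52% and 4.87%, TEAD letters (ACATTCC) at 5.51% and 5.81%, and RUNX letters (TGTGGTT) at 4.90% and 5.62%. Flanks held RUNX letters at 4.39% and 4.20%, the latter below the Oct6-SK interval (4.81 to 6.56). Of 8 motifs, none differed between the whole lists past counting error, and 1, SoxOct, differed between the private sites. Each share counts these letters only. At equal numbers of 2669, Oct4-SK private sites held AP-1 letters more often than Oct6-SK private sites by 2.36 points (0.425 to 4.30), but the interval took in 0 at 1000 (2.94 points, −0.493 to 6.38) and with scores of at least 10 (1.27 points, −2 to 4.07).

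**Figure D3:**
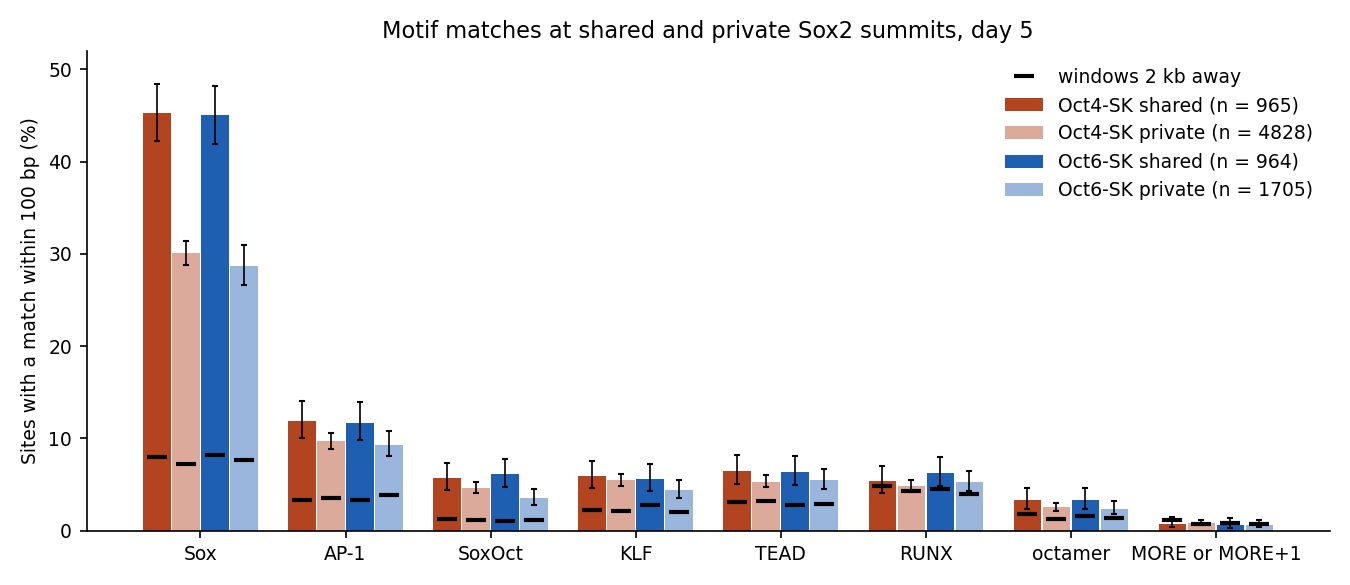
Percent of sites with a motif match within 100 bp of the summit (bars, 95% Wilson intervals) for shared and private sites of each list, with windows 2 kb away as black dashes. Sox letters stand at 45.3% and 45% of shared sites and at 30.1% and 28.7% of private ones, and MORE is at its flanking level.

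Shared sites recurred in the other ChIP libraries more often than private ones. In the Oct4-SK list this held past counting error for all 11 libraries, and in the Oct6-SK list for 9 of 11, the exceptions being Oct4defSox2 at day 5 and Oct6 M151S. Sox2 in Oct4defSox2-SK at day 5 covered 76.5% of shared (73.7 to 79.0) and 30.8% of private Oct4-SK sites (29.6 to 32.2). For Oct6-SK the shares were 73.9% and 40.3%. Sites with no summit in any other library numbered 2330 in Oct4-SK, 40.2% of the list, and 573 in Oct6-SK, 21.5%. Shared sites cannot be among them by definition, and of the private sites alone they made up 48.3% and 33.6%. No equal-number value was computed for these shares. Sites found in 10 or more of the 13 libraries numbered 40 and 37.

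Sox2 binding at day 1 went with sharing at day 5. Of shared Oct4-SK sites, 46.1% (43.0 to 49.3) had a Sox2 summit in Oct4-SK at day 1, against 13.6% (12.6 to 14.6) of private sites, 32.5 points apart (29.2 to 35.8). For Oct6-SK and its own, shorter day 1 list the shares were 19.6% (17.2 to 22.2) and 8.09% (6.89 to 9.48), 11.5 points apart (8.75 to 14.4). The gap stood within rank classes. Among the top 1000 Oct4-SK sites, 60.6% of those bound at day 1 were shared against 34.5% of the rest, and below the top 1000 the shares were 27.3% and 7.88%.

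Sites that Oct4 bound in Oct4-SK cells at day 5 were more often held by Sox2 in Oct6-SK cells, which received no Oct4 virus. Of 472 Oct4-SK Sox2 sites with an Oct4 summit, 138 were shared (29.2%, 25.3 to 33.5). Of the 5321 others, 15.5% were shared (14.6 to 16.5), a difference of 13.7 points (9.65 to 18.1). Within the top 1000 the difference was 8.75 points (0.282 to 17.1), and below it 7.08 points (3.20 to 11.7). Counted the other way, Oct4 lay at 14.3% of shared and 6.92% of private Oct4-SK sites, 7.38 points apart (5.18 to 9.83). With both lists cut to their top 2669 the gap was 5.81 points (2.97 to 8.88). At the top 1000 it was 1.12 points (−3.56 to 6.25), and with scores of at least 10 it was 3.07 points (−0.285 to 6.92), both intervals taking in 0.

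The private sites of the lists differed in which other libraries held them. Oct6 M151S, an Oct6 mutant whose library is titled day 1 but labelled day 2 elsewhere, held 11.9% of Oct6-SK private sites (10.5 to 13.5) and 4.18% of Oct4-SK private sites (3.65 to 4.79). The difference was −7.72 points for Oct4-SK minus Oct6-SK (−9.43 to −6.15). It was −6.08 points (−7.89 to −4.30) at equal numbers of 2669 and −10.1 points (−13.7 to −6.61) at 1000. That list was called with a looser threshold, and with its summits of score 4 or more the shares were 8.45% and 2.61%. Sox2 in Oct6-SK at day 1 held 8.09% of Oct6-SK and 3.15% of Oct4-SK private sites, −4.95 points (−6.41 to −3.63), and −3.30 points (−4.91 to −1.72) at equal numbers. Other libraries leaned the same way: over the whole lists 7 of 11 libraries were more frequent at Oct6-SK private sites past counting error and 2 at Oct4-SK ones, while at equal numbers of 2669 it was 3 and 5. Sox2 in Oct4-SK at day 1 gave −4.77 points (−6.90 to −2.74), Sox2 in Oct4defSox2-SK at day 1 −6.59 points (−8.49 to −4.80), Oct4defSox2 at day 1 −10.5 points (−13.0 to −7.90; −1.26, −4.31 to 1.79, at 2669) and Oct4 S151M −3.07 points (−5.35 to −0.883).

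Wild-type Oct4 in Oct4-SK leaned the other way. Oct4 at day 7 held 5.51% of Oct4-SK private sites (4.90 to 6.19) and 3.75% of Oct6-SK private sites (2.95 to 4.76), 1.76 points apart (0.576 to 2.81), and 4.14 points (2.63 to 5.69) at equal numbers. Oct4 at day 1 gave 1.60 points (0.0801 to 3.00) and 4.82 points (2.93 to 6.73). Oct4 at day 5 gave 1.29 points (−0.0904 to 2.54) and 4.61 points (2.90 to 6.35). For wild-type Oct4, Oct6 M151S and Sox2 in Oct6-SK at day 1 the signs were the same at the top 1000 and at scores of 10 or more, where the interval for Oct4 at day 1 took in 0 (3.06 points, −0.361 to 6.03). Sox2 in Oct4defSox2-SK at day 1 kept its sign too: −2.78 points (−4.99 to −0.571) at 2669, −7.06 at 1000 and −9.20 with scores of at least 10. Oct4defSox2 at day 1 also stayed negative, at −7.94 points (−13.2 to −2.63) at 1000 and −14.3 with scores of at least 10. The lean to Oct6-SK private sites was thus not confined to libraries with Oct6. Some other contrasts changed sign. Sox2 in Oct4defSox2-SK at day 5 held 30.8% of Oct4-SK and 40.3% of Oct6-SK private sites (−9.45 points, −12.1 to −6.80). With scores of at least 10 the difference was −8.56 points (−13.3 to −3.69), at equal numbers of 2669 it was 4.51 points (1.35 to 7.66), and at 1000 it was 3.68 points (−1.41 to 8.73). At 2669, Oct4 S151M turned to 3.78 points (1.06 to 6.48) and Sox2 in Oct4-SK at day 1 to 1.15 points (−1.40 to 3.70).

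**Figure D4:**
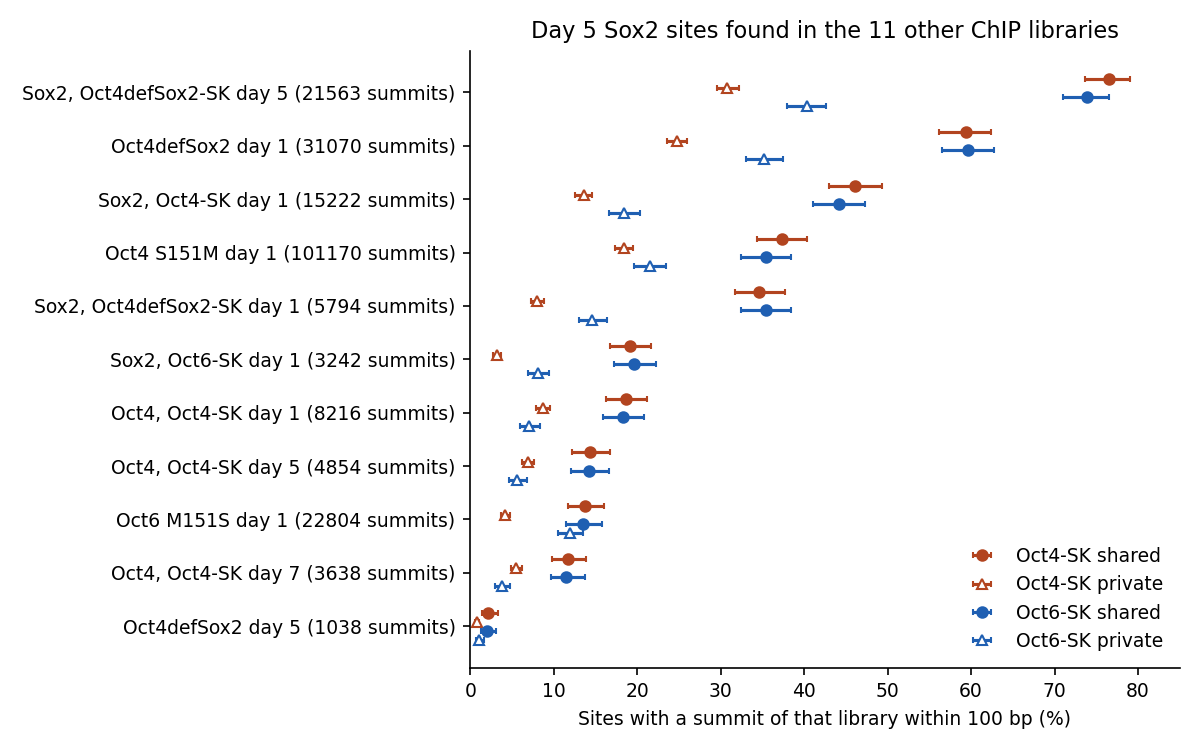
Percent of shared (filled) and private (open) day 5 Sox2 sites with a summit of each other ChIP library within 100 bp, with 95% Wilson bars and the library's summit number in its label. Open triangles sit left of the filled circles of the same list in every row, and in the Oct6 M151S row the Oct6-SK private sites, at 11.9%, lie beside the shared ones at 13.5%.

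Most sites lay away from gene starts. Within 1 kb of a protein-coding start were 472 Oct4-SK sites, 8.15% (7.47 to 8.88), and 136 Oct6-SK sites, 5.10% (4.32 to 6.00), 3.05 points apart (1.93 to 4.12). At equal numbers the gap was 2.96 points (1.63 to 4.30). Among private sites the shares were 8.91% and 5.63%. Shared sites, the same loci in both lists, stood at 4.35% and 4.15%. Of Oct4-SK sites near a start 8.90% were shared, against 17.3% elsewhere (−8.45 points, −10.9 to −5.37). In Oct6-SK the shares were 29.4% and 36.5% (−7.07 points, −14.3 to 1.28). Introns held 44.6% of Oct4-SK and 45.8% of Oct6-SK sites, and 50.6% of each list was intergenic. Median GC of the window was 44.8% and 42.8%. Windows that were over 80% repeat made up 4.21% and 3.71%. A satellite-like cluster on chromosome 2 within chr2:98662331-98667184 gave 4 Oct4-SK and 5 Oct6-SK summits, 4 shared in each list, with ranks from 27 and 5.

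Genes of the cocktails served as a check of the labels, and the lists held summits inside their exons. Sox2, the gene for the protein pulled down, had coding-exon summits scoring 51.7 and 38.7 in the Oct4-SK list, against 1 of 32.6 in the Oct6-SK list. Pou3f1, the gene of Oct6, had 2 coding-exon summits in Oct4-SK (8.2 and 17.5, ranks 3414 and 725) and 3 in Oct6-SK (15.6, 22.6 and 21.8, ranks 310, 96 and 114). Both lists thus held Pou3f1 summits. Pou5f1 had 1 coding-exon summit in each list, scoring 102.0 (rank 3) in Oct4-SK and 33.0 (rank 30) in Oct6-SK, 5 bp apart. At day 1 Sox2 scored 28.0 in Oct4-SK and 71.5 in Oct6-SK at this Pou5f1 summit. Scores are not comparable between libraries. Ranks here are within day 5 lists of 5793 and 2669 summits, so they are not on one scale. These summits do not tell the cocktails apart. Klf4 had none in either list. Reads of a retroviral cDNA, of the Oct4 reporter and of the chromosomal gene cannot be told apart in a summit list. Sox17, an endoderm Sox gene in neither cocktail, had 3 coding-exon summits in each list, scoring 87.0, 79.1 and 45.4 in the Oct4-SK list, against 36.0, 18.7 and 14.7 with Oct6. Among the top 100 summits, 10 in Oct4-SK and 8 in Oct6-SK were in coding exons. Over all sites, exons of any kind, UTRs included, held 4.76% and 3.63%. The top 100 of both lists had such summits in Sox17, Pou5f1, Sox2 and Gm10800, the last within the chromosome 2 cluster.

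Genes of known roles were then read by their nearest sites. Over all 21911 protein-coding genes, 23.9% had an Oct4-SK summit within 50 kb of a start and 10.5% an Oct6-SK summit. For shared sites the share was 4.07%, for Oct4-SK private sites 21.4% and for Oct6-SK private sites 7.08%. Of 32 naive pluripotency genes, 8 had an Oct4-SK site (25%), 7 an Oct6-SK site (21.9%) and 5 a shared site (15.6%). Leaving out summits in exons of Pou5f1, Sox2, Klf4 and Pou3f1, a step added after seeing the data, these counts were 8, 5 and 3, the last 9.38%, and of the POU genes below 3 and 1 kept a site. Of 28 epithelial genes the counts were 11, 4 and 2, of 35 mesenchymal genes 9, 7 and 2, of 37 TGF-beta genes 13, 6 and 3, and of 32 neural progenitor genes 11, 4 and 2. Of 18 Sox genes 9 and 3 had a site, of 17 Klf genes 8 and 2, of 14 POU genes 3 and 2, of 15 AP-1 genes 6 and 3, and of 20 collagen genes 7 and 4. The 26 housekeeping genes, which serve as a comparison, had 11 (42.3%) and 3 (11.5%). For Oct4-SK this lay within the range of the other lists, and for Oct6-SK it was the lowest of the 11 lists, or above the POU genes alone (7.14%) without the exon summits.

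**Figure D5:**
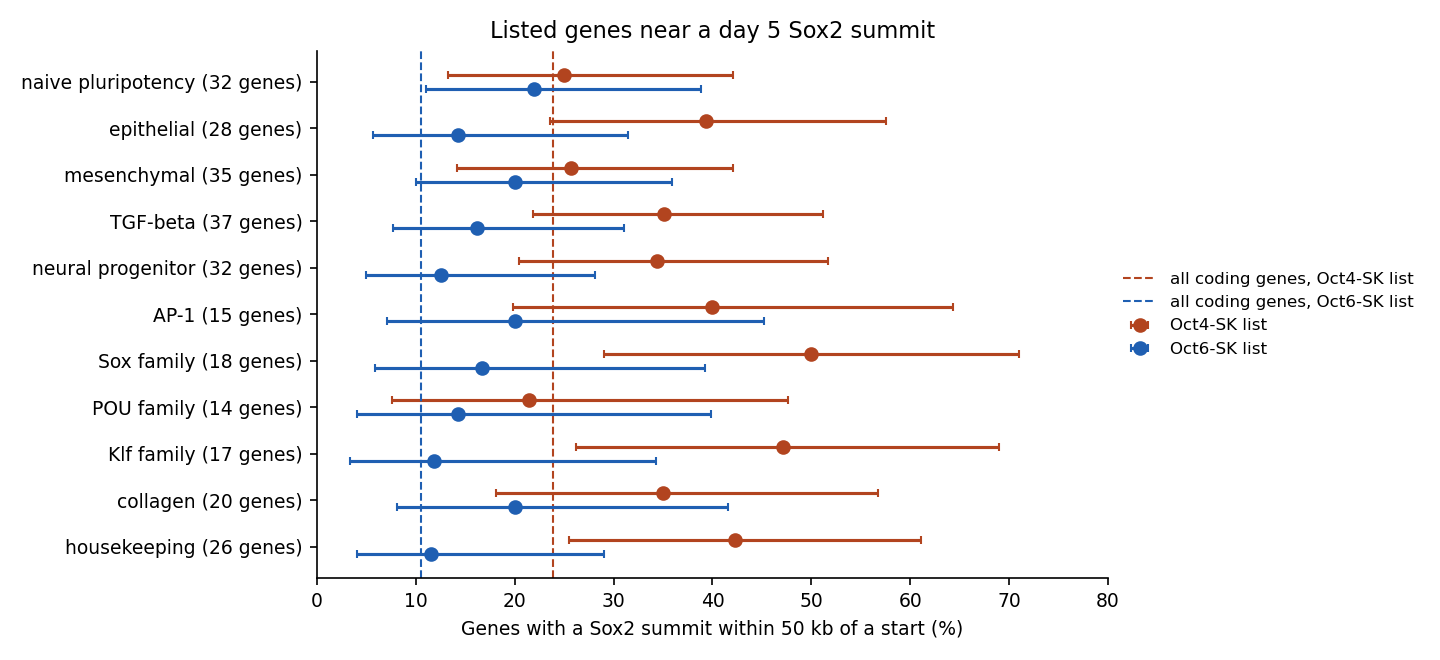
Percent of genes of each list with a day 5 Sox2 summit within 50 kb of a start, with 95% Wilson bars, and the share over all protein-coding genes as dashed lines (23.9% for Oct4-SK, 10.5% for Oct6-SK). Most bars cross their line, and the housekeeping genes, stand at 42.3% for Oct4-SK and 11.5% for Oct6-SK.

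Some genes of these lists are shown with their sequence, picked after their values were seen because they hold the Sox or SoxOct letters in one or both lists. The Pou5f1 site is chr17:35504029-35504129, 1939 bp upstream of its start, in the stretch that holds its enhancers. The Klf13 site is chr7:63957172-63957272, the Klf2 site chr8:72316221-72316321, the Id1 site chr2:152728373-152728473, and the Runx1 site, centred on the Oct6-SK summit in an intron, chr16:92680132-92680232.
Pou5f1: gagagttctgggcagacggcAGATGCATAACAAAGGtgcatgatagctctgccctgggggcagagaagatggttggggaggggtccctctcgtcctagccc
Klf13: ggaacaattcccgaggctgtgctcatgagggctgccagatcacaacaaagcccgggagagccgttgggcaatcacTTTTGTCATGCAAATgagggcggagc
Klf2: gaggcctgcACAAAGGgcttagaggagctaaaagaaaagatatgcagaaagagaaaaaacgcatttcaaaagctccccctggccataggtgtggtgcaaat
Id1: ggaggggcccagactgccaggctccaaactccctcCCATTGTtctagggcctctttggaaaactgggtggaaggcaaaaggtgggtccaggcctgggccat
Runx1: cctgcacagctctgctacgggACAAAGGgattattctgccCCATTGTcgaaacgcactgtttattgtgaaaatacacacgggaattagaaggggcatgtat

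The upstream Pou5f1 site, with a SoxOct element of 2 mismatches over CCTTTGT on the minus strand, scored 13.6 in Oct4-SK (rank 1283). Its nearest Oct6-SK summit was 2224 bp away. It was found with Oct4 on day 1 (44.7), day 5 (26.2) and day 7 (155.1), and on day 1 with Oct4defSox2 (48.5), the mutant Oct4 S151M (147.6), Sox2 in Oct4-SK (7.3) and the mutant Oct6 M151S (2.9). The Klf13 site, 18307 bp upstream of a Klf family gene, held a SoxOct element with 1 mismatch that takes in an exact octamer. It was shared, at 55.2 in the Oct4-SK list against 14.6 with Oct6, and was bound by Oct4 at day 5 (115.9). Klf2, a naive pluripotency factor, had a site 2762 bp upstream that scored 26.4 in Oct4-SK, with the nearest Oct6-SK summit 360850 bp away.

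Epithelial and signalling genes had both kinds of site. Dsp, which encodes the desmosome protein desmoplakin, had a shared site 42019 bp upstream at 48.1 (rank 34) and 9.9 (rank 993). Epcam, an epithelial adhesion gene, had a shared site at 10.4 and 8.2. Id1, a BMP target, had a shared site at 17 and 14.6, and Tgfbr2, a TGF-beta receptor, one at 14.4 and 16.6. Id2 had no shared site, with Oct4-SK summits at 17 and 10.4 and an Oct6-SK summit at 6.5.

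Among mesenchymal genes, Fn1 (fibronectin) shared a site at 18.5 and 8.4. Runx1, a factor active in fibroblasts and blood, had an intronic site at 17.6 in Oct6-SK (rank 197) with a summit at 5.3 in Oct4-SK (rank 5245) 125 bp away, just past the sharing distance. Vim and Cdh2 (N-cadherin) had private sites in each list, at 11.2 and 9.0 and at 11.9 and 5.0. Tbx15, a mesenchymal T-box gene, had an Oct6-SK site at 9.0 with no Oct4-SK site within 50 kb of a start. Fosb, an AP-1 gene, had a shared site at 4.2 in Oct4-SK (rank 5771) and 12.1 in Oct6-SK (rank 617). The collagen IV genes Col4a1 and Col4a2, which share a promoter, had private sites in both lists, the Oct4-SK ones at 28.4 and 5.5, the Oct6-SK one at 9.0.

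Other genes named by the rule were mixed. Shared sites lay near Dll3, a Notch ligand of neural progenitors (20.6 in Oct4-SK and 9.0 with Oct6), and Jdp2, an AP-1 repressor (10.4 and 12.6). Klf3 had a private summit in each list (6.5 and 8.2), as did the collagen gene Col7a1 (9.1 and 9.9). Jund and Atf3, both AP-1 genes, had Oct4-SK summits of at most 7.5 and no Oct6-SK summit within 50 kb. Pou6f1 (17) had an Oct4-SK summit alone and Pou1f1 (6.5) an Oct6-SK summit alone. Of the housekeeping genes, Actb and Tbp had a shared site each (18.9 and 15.0, 11.3 and 12.8).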

How the data were processed

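Sox2 was mapped by ChIP-seq at day 5 in 1 Oct4-SK and 1 Oct6-SK culture. Per the study's methods and, for the version, the submitters' processing notes, the authors aligned paired-end reads to mm10 (GRCm38) with Bowtie2 2.2.5, removed low mapping qualities and duplicates with SAMtools, and called peaks per library with MACS2 at a p-value threshold, splitting peaks into summits and scaling the smaller library up to the larger, which can raise its scores. Deposited summit values are MACS2 p-values on a −log10 scale. Summit lists give no read depth; library statistics and the 3 input libraries were not used here. The Oct6 M151S list starts at 2.30, the others at 4.00 or above.

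Sharing, recurrence and motif matches (both strands, overlaps allowed) were computed with Python 3.11.15, numpy, pandas and pysam, using GENCODE M21 basic genes and the GRCm38 genome, and were tested on simulated data. SoxOct (up to 2 mismatches), MORE and MORE+1 (up to 1) were scored within 100 bp. Shares have Wilson and differences Newcombe 95% intervals. Left out were 39 Oct4-SK and 4 Oct6-SK summits on other sequences. Named were the 6 leading shared and private sites, and genes whose highest site was among the 2 highest of its list in either library. Some genes that this rule names are not reported here. The sites, motifs and gene lists were chosen with earlier results of these data known. Alternatives covered distance, score, equal numbers, summits per peak, recurrent sites, windows, mismatches and repeats.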

Additional observations from a re-analysis of the deposited data

How the results depend on the processing

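Of 104 shares and differences under alternatives, 71 stayed inside the 95% interval of the reported value and 33 did not. In all, 5 changed sign, 2 of them where the reported interval left out 0, and the other 3 were the private Sox difference at 50 bp (−0.137 points) and the MORE difference with 0 (−0.0379) and up to 2 mismatches. Of 6 counts of listed genes, 4 moved by over 1.5 times. The share of Oct4-SK sites found in Oct6-SK was 10.7%, 21.2% and 22.6% with sharing distances of 50, 250 and 1000 bp, and that of Oct6-SK sites was 23.3%, 45.4% and 48.2%. With scores of at least 10 the shares were 18.2% and 47.2%, and with equal numbers 28.6% (2669 summits) and 32.0% (1000). The day 1 gap between shared and private Oct4-SK sites was 22.2 points at 50 bp, 36.4 at 1000 bp, 29.2 at 2669 and 27.6 at 1000 summits, and that of Oct6-SK 14.9 at 1000. The Oct4 gap was 10.3 points at 250 bp, 12.4 at 1000 bp, 3.07 with scores of at least 10, 1.12 with 1000 summits and 4.86 without sites in 10 or more libraries. The Oct4defSox2-SK contrast of private sites was −5.59 points at 50 bp, and turned to 4.51 and 3.68 points with equal numbers of 2669 and 1000, the latter with an interval that took in 0; the cause was not tested. Private Sox shares differed by 5.73 points with scores of at least 10, and by 10.4 and 9.71 with equal numbers, AP-1 shares by 2.36 and 2.94, and SoxOct shares over the lists by 1.72 and 1.90. With up to 2 mismatches the MORE difference was −1.37 points. Of 266 listed genes, 94 had an Oct4-SK and 44 an Oct6-SK site (35.3% and 16.5%, against 23.9% and 10.5% of all coding genes). Within 20 kb they numbered 56 and 27 (21.1% and 10.2%, against 11.8% and 4.83%), in Oct6-SK within 100 kb 67 (25.2% against 19.1%), and in Oct4-SK at equal numbers 58 (21.8% against 12%). Leaving out windows over 80% repeat, an alternative added after seeing the data, moved no value past its interval. No paired analysis was possible because each group is 1 library and the labels give no replicate numbers. Read depth, not used here, limits what a private site means: a site under the threshold is not shown to be unbound.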
